A study of Mus musculus with 53 samples.

Results

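Cerebellar granule cell genes were followed here as a list of 9 genes known as markers of that neuron, namely Cbln1, Cbln3, Neurod1, Zic1, Zic2, Pax6, Etv1, Fat2 and Calb2, picked by symbol from the rows of the count table. The table held 12372 genes and 8 of the 9, and Fat2, a large cadherin of granule cell axons, was not among its rows and is not analysed here. RNA sequencing was done on brainstem, cerebellum, cortex and striatum of hemizygous MJD84.2 mice, a model of spinocerebellar ataxia type 3 (SCA3), and of wild-type C57BL/6 mice. MJD84.2 mice keep their own Atxn3 gene and carry in addition full-length human ATXN3 whose CAG repeat is expanded, driven by the human ataxin-3 promoter in all tissues rather than in granule cells alone. All mice were untreated males aged 17.5 months (74 to 77 weeks), and all had gone through motor tests earlier in life. The mice of 74 weeks were all SCA3. Each of the 14 mice (8 wild-type and 6 SCA3) gave at most 1 library per region, 53 in all: cerebellum had 7 wild-type and 6 SCA3 libraries, brainstem 8 and 6, cortex 7 and 6, and striatum 8 and 5. Libraries are named by genotype and mouse number.

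Granule cells are the small glutamatergic neurons of the granular layer and the most numerous neurons of the brain. Their axons, the parallel fibres, synapse on Purkinje cells, and Cbln1 released from them holds these synapses together. A set of transcription factors, among them Zic1, Zic2, Pax6, Neurod1 and Etv1, is used in the birth and maturation of these cells and stays expressed in the adult. Tissue pieces were sequenced whole, so fewer granule cells and less RNA per granule cell cannot be told apart.

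Library totals ranged from 31680939 to 76703758 counts. The label cerebellum held for all 13 libraries that carried it: the summed level of the 7 Purkinje cell markers in the table lay between 6652 and 11037 CPM (counts scaled to the library total after TMM normalisation) there, and reached at most 3123 CPM in any other library. Positions below are on mouse genome GRCm38. The members are protein-coding genes on 5 chromosomes. Cbln1 lies at chr8:87468405-87472609 and Calb2 at chr8:110137502-110168210, both on the minus strand. Cbln3 spans chr14:55878913-55884392 on the minus strand and Zic2 chr14:122475435-122479852 on the plus strand. Neurod1 lies at chr2:79452521-79456751 on the minus strand and Pax6 at chr2:105668900-105697364 on the plus strand. Zic1 lies at chr9:91358058-91365810 on the minus strand and Etv1 at chr12:38779380-38870484 on the plus strand. Counting did not use strand, and 154 exon bases of Neurod1 overlap an antisense noncoding gene, so a part of its reads cannot be assigned to one strand. The exons of the other 7 members share no base with another annotated gene.

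The first question was how far the members separate cerebellum from the other regions. All 8 were higher in cerebellum than in each of the other regions, in both genotypes, and for all 8 even the lowest cerebellar library exceeded the highest library of any other region. That separation was also seen for 8.75% of all genes (1083 of 12372). Since the list was drawn up as granule cell markers, this describes the dissections rather than testing the list.

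Cbln3, a cerebellin that granule cells make along with Cbln1 and that needs Cbln1 to leave the cell, was the member most restricted to cerebellum. Its wild-type cerebellar libraries read 890 CPM at the lowest, 1265 at the median and 1672 at the highest, against at most 38.1 CPM in wild-type brainstem, 0.885 in cortex and 1.03 in striatum. Of all its counts over the 53 libraries, 98.9% fell in cerebellum. The log2 fold change of wild-type cerebellum was 7.41 over brainstem (SE 0.60), 10.80 over cortex (SE 0.63) and 11.12 over striatum (SE 0.61).

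Neurod1, a basic helix-loop-helix factor needed for granule cell differentiation, was next, with 95.7% of its counts in cerebellum. Wild-type cerebellar libraries lay between 334 and 526 CPM (median 360), and the highest reading elsewhere was 23.0 CPM in cortex of wild-type mouse 7267058. Cbln1 had 90.9% of its counts in cerebellum, where wild-type libraries lay between 520 and 922 CPM (median 651), and the highest reading elsewhere was 78.0 CPM in brainstem of SCA3 mouse 7267054. These genes thus sat well apart from the other regions, the lowest cerebellar library being 13 times the highest other library for Cbln3, 13.8 times for Neurod1 and 6.66 times for Cbln1.

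The zinc finger factors Zic1 and Zic2 were less restricted, with 79.5% and 79.2% of their counts in cerebellum. Wild-type cerebellum read 480 to 845 CPM for Zic1 (median 602) and 188 to 320 CPM for Zic2 (median 232). The nearest library of another region was in both cases the striatum of wild-type mouse 7267055, with 210 CPM of Zic1 and 80.0 CPM of Zic2. Pax6, a paired-box factor of granule cell precursors and mature granule cells, had 75.8% of its counts in cerebellum, at 85.5 to 113 CPM in wild-type mice (median 93.9), and reached 15.7 CPM at most elsewhere.

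Etv1, an ETS factor of maturing granule cells that is also made in other brain neurons, and Calb2, the calcium buffer calretinin found in granule cells and in several interneuron types, separated the regions least. Etv1 had 58.2% of its counts in cerebellum and read 239 to 351 CPM there in wild-type mice (median 268), against 34.4 to 93.1 CPM over the other regions of wild-type mice and at most 106.6 CPM over those regions in SCA3 mice. Calb2 had 61.2% of its counts in cerebellum and read 332 to 470 CPM there in wild-type mice (median 382), against 141 to 209 CPM in wild-type brainstem. For Calb2 the lowest cerebellar library was only 1.41 times the highest library elsewhere.

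By the edgeR likelihood ratio test with Benjamini-Hochberg adjustment over all genes (false discovery rate, FDR, below 0.05), 8 of 8 members were higher in wild-type cerebellum than in wild-type brainstem, where 35% of all genes were called higher, and likewise against cortex (34.2% of all genes) and striatum (34.2%). In SCA3 mice it was again 8 of 8 in each comparison, with 33.7%, 33% and 34.5% of all genes called higher against brainstem, cortex and striatum. The median log2 fold change of the members in wild-type mice was 3.93 against brainstem, 4.07 against cortex and 2.94 against striatum, whereas the medians over all genes were -0.02, -0.0087 and -0.0032. The smallest called difference in wild-type mice, 1.19 on the log2 scale (SE 0.51, edgeR FDR 0.0294), was that of Calb2 against brainstem. It missed the threshold when mouse 9083372 or mouse 9083375 was left out, with a log2 fold change of 1.18 in both cases (FDR 0.0563 and 0.0523).

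**Figure D1:**
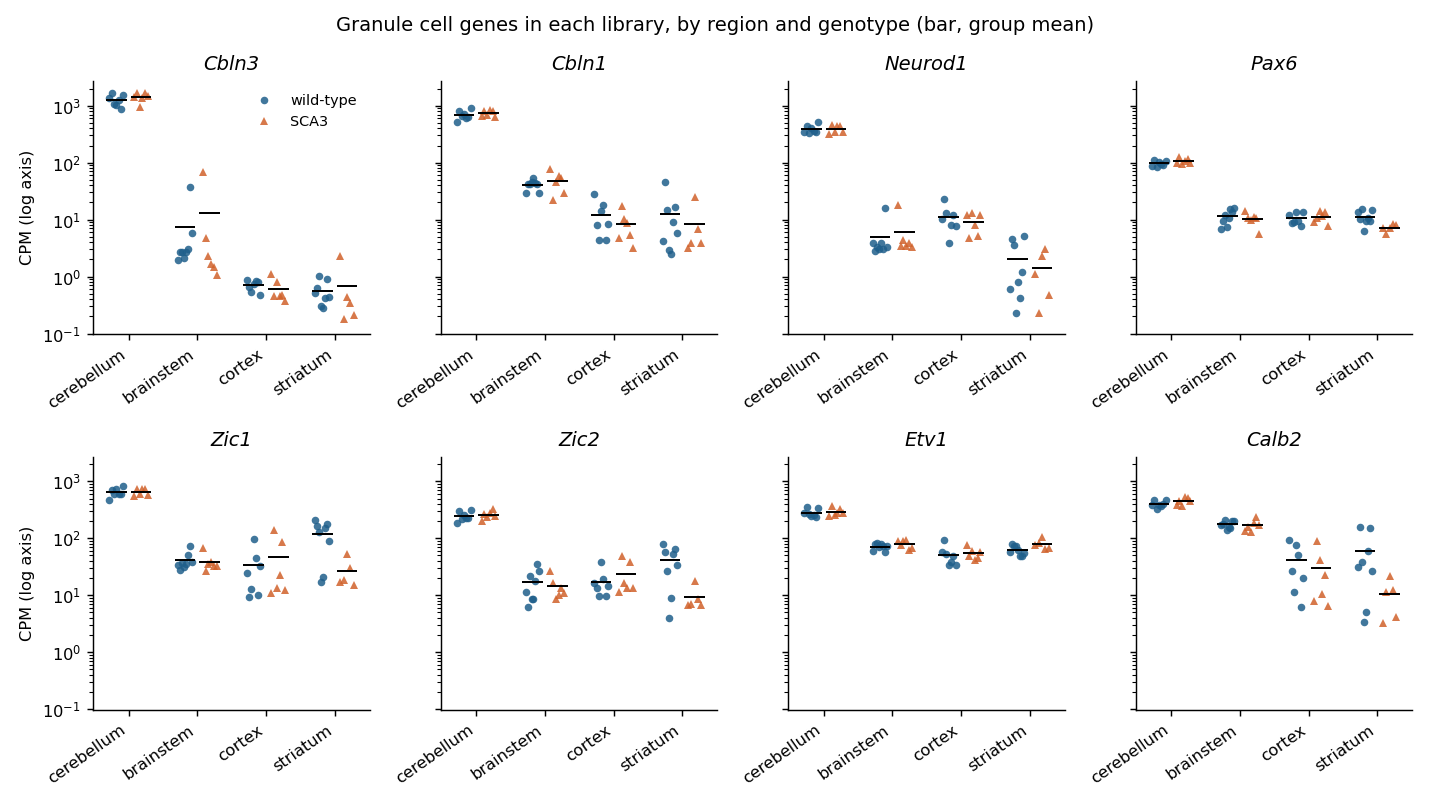
Level of each of the 8 members in every library, in CPM on a log axis, by region on the horizontal axis, with wild-type as circles, SCA3 as triangles and the group mean as a bar. Cerebellar libraries lie above all others for each member, by a gap that is widest for Cbln3 and Neurod1 and narrowest for Calb2, and the cerebellar ranges of the genotypes overlap for each member.

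Levels of different genes were compared only per length, as CPM per kilobase of annotated exon (RPKM). In wild-type cerebellum Cbln3 stood at 260 ± 57.5 RPKM (SD, n = 7), Cbln1 at 246 ± 47.7 and Calb2 at 230 ± 29.3. These top levels did not differ beyond their spread. Neurod1 followed at 144 ± 25.2 RPKM, then Zic1 at 115 ± 21.2 and Zic2 at 102 ± 19.3, and the ranges of these also overlapped. The highest Neurod1 library (193 RPKM) reached just above the lowest Cbln3 library (183 RPKM). Etv1 at 39.2 ± 6.36 RPKM and Pax6 at 14.1 ± 1.54 RPKM were clearly lower, with ranges that overlapped neither each other nor those above. Without the length correction Calb2 moved from rank 3 to rank 4 and Zic1 from rank 5 to rank 3.

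Outside cerebellum the order of the regions differed between members. Cbln1 and Calb2 were next highest in brainstem (41.1 ± 8.23 and 176 ± 25.2 CPM in wild-type, SD, n = 8), Neurod1 in cortex (11.1 ± 6.04 CPM, n = 7) and Zic1 and Zic2 in wild-type striatum (120 ± 71.2 and 41.1 ± 27.2 CPM, n = 8). The ranges of these second-ranked regions overlapped the next region down for each of the 5 genes in wild-type mice. Cbln3 was next in brainstem (1.99 to 38.1 CPM in wild-type), above and without overlap with cortex (0.475 to 0.885 CPM), whereas in SCA3 brainstem overlapped striatum. Etv1 was next in brainstem (71.9 ± 9.33 CPM in wild-type), with a range that overlapped striatum. For Pax6 the ranges of the other regions overlapped, at 11.3 ± 3.34 CPM in wild-type brainstem, 11.2 ± 3.09 in striatum and 10.7 ± 2.41 in cortex.

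Promoter sequence was looked up for the members because they were high together in cerebellum. Entries were found for 5 members, with 7 start sites. The letters upstream of the start that no annotated exon covers are shown for the pair of members most restricted to cerebellum (RefSeq starts, GRCm38.p6, written 5′ to 3′ along the gene's minus strand), at chr14:55884393-55884506 for Cbln3 and chr2:79456752-79456886 for Neurod1.
Cbln3: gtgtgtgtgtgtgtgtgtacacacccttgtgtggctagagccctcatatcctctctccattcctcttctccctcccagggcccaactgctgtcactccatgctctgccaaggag
Neurod1: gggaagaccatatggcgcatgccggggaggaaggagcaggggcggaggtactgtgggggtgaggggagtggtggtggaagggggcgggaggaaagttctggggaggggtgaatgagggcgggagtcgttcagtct
Both were searched, on both strands, for the E-box forms CAGCTG and CAGATG, letters that basic helix-loop-helix factors such as Neurod1 bind, and for the letters CCTGCTG. Neither sequence held any, so none of their bases is in capitals. The same search was run in the 250 bases before every RefSeq start. Of the 7 windows of members, 1 (the second start of Etv1) held an E-box of these forms, against 25.5% of 32851 windows of all genes, and 0 held CCTGCTG, against 8.44%. A match or its lack describes these letters and says nothing about binding.

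The main question was whether granule cell genes differed between SCA3 and wild-type cerebellum. No difference was called for any member (0 of 8), beside 0.0647% of all genes (8 of 12372), and their log2 fold changes of SCA3 over wild-type lay between -0.0038 (Neurod1) and 0.17 (Calb2). Their median was 0.08, against -0.00434 over all genes. With the same test, 205 of all genes and none of the 8 had an unadjusted p below 0.05. Choroid plexus markers (3 of 5 in the table) differed in spread between the genotypes, summing to 19.6 to 2118 CPM in wild-type cerebellum (median 140) and 658 to 1998 CPM in SCA3 (median 1138). With their score as a covariate, chosen after seeing the data, 0 of 8 members were called.

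Cbln3 read 934 CPM at the lowest, 1444 at the median and 1702 at the highest in the 6 SCA3 cerebellar libraries, and 890, 1265 and 1672 CPM in the 7 wild-type libraries. Cbln1 read 640, 732 and 846 CPM in SCA3 against 520, 651 and 922 CPM in wild-type. The wild-type range enclosed all SCA3 libraries for Cbln1 and all but 1 for Cbln3. In wild-type cerebellum Neurod1 averaged 394 ± 68.8 CPM (SD over 7 libraries), and 393 ± 60.8 CPM over 6 libraries in SCA3. Zic1 averaged 651 ± 120 and 656 ± 87.6 CPM, and Zic2 249 ± 47.0 and 261 ± 43.5 CPM, in the same order. These factors thus differed by much less than 1 SD between genotypes. Etv1 stood at 293 ± 48.8 CPM in SCA3 and 282 ± 45.8 CPM in wild-type.

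Pax6 and Calb2 came nearest to a difference. Pax6 read 93.2 to 124 CPM in SCA3 and 85.5 to 113 CPM in wild-type, and 3 of the 7 wild-type libraries lay below all SCA3 libraries. Calb2 read 373 to 529 CPM in SCA3 and 332 to 470 CPM in wild-type, with 2 wild-type libraries below all SCA3 libraries. Both ranges overlapped.

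In the fit of all 53 libraries, each gene has 1 spread for all regions, a coefficient of variation between mice of 0.205 to 0.802 for the members, and the SE of the cerebellar log2 fold changes was 0.17 to 0.64. A fit of the 13 cerebellar libraries alone gave coefficients of 0.104 to 0.194 and narrower 95% intervals. These ran from 0.913 to 1.39 times wild-type for Cbln3, from 0.903 to 1.26 for Cbln1 and from 0.849 to 1.18 for Neurod1. They ran from 0.856 to 1.19 for Zic1, from 0.879 to 1.25 for Zic2 and from 0.887 to 1.22 for Etv1. For Pax6 the interval was 0.975 to 1.23 and for Calb2 0.982 to 1.30, and all 8 intervals held 1. The smallest unadjusted p of that fit was 0.0876, for Calb2 (edgeR likelihood ratio test, FDR 1.00 after adjustment over all genes). Differences inside these bounds could not be told from zero with 13 libraries.

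**Figure D2:**
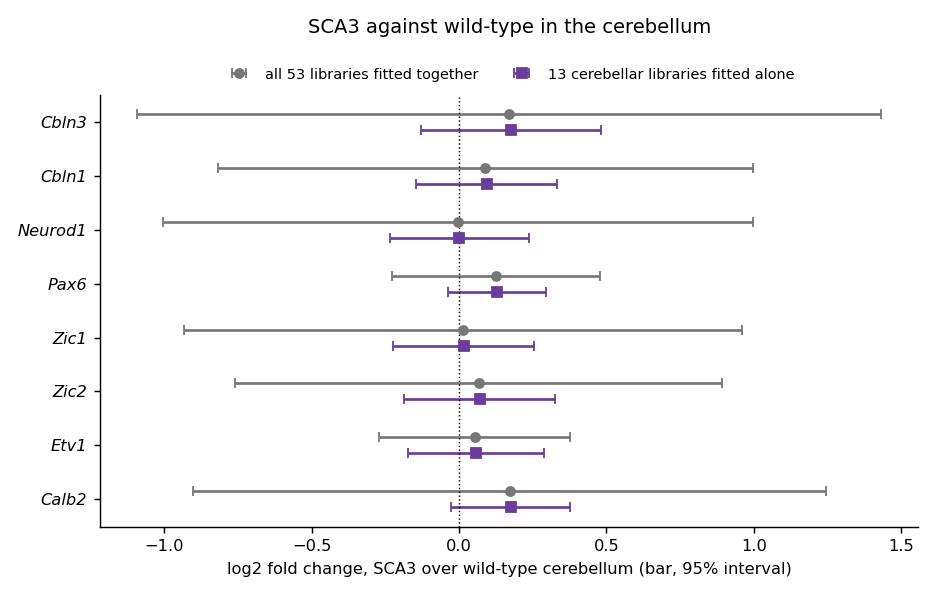
Log2 fold change of SCA3 over wild-type cerebellum for each of the 8 members, with bars for the 95% interval, from the fit of all 53 libraries (grey circles) and from the 13 cerebellar libraries alone (purple squares). All intervals cross zero, and those of the cerebellum-only fit stay between -0.24 and 0.48.

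Within cerebellum the members varied from library to library in a shared pattern that did not follow genotype. Zic1 values fell into separate ranges, 480 to 602 CPM in 7 libraries and 719 to 845 CPM in 6 libraries, and 4 wild-type and 3 SCA3 libraries were in the lower range against 3 and 3 in the upper. The same division of libraries separated Cbln1 (520 to 673 against 704 to 922 CPM), Neurod1 (319 to 360 against 400 to 526 CPM), Zic2 (188 to 246 against 254 to 331 CPM) and Pax6 (85.5 to 100.3 against 102 to 124 CPM) without overlap. Cbln3, Etv1 and Calb2 overlapped between both sides, Cbln3 at 890 to 1454 against 1048 to 1702 CPM. The division was set at the widest gap in Zic1, itself a member. The share of all genes that it also separates was not counted, so the separation is not shown to be particular to the members.

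Markers of other cells moved with this division. Slc17a6, the vesicular glutamate transporter of the deep cerebellar nuclei and of many brainstem and thalamic neurons, ran the other way, at 63.9 to 125 CPM in the 7 libraries low in Zic1 and 15.4 to 29.4 CPM in the 6 high ones. Tcf7l2 (20.2 to 62.0 against 6.42 to 17.3 CPM) and Cbln2 (7.15 to 19.9 against 0.111 to 3.09 CPM) did likewise. Of the granule cell genes outside the list, Gabrd overlapped between the sides (145 to 184 against 167 to 205 CPM) and others moved with the members. Slc17a7, the transporter of granule cell terminals, was at 283 to 356 against 380 to 507 CPM, and the 5 of 7 such markers in the table summed to 1016 to 1175 against 1274 to 1710 CPM. That sum is not particular to granule cells, with a median of 1414 CPM in wild-type cortex and 1099 CPM in wild-type cerebellum. The 7 of 9 Purkinje cell markers in the table summed to 6652 to 8116 against 8234 to 11037 CPM, and the 3 of 6 unipolar brush cell markers to 630 to 720 against 760 to 906 CPM.

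Other lists overlapped between both sides. Oligodendrocyte markers (6 of 6 in the table) summed to 3726 to 5175 against 2906 to 4002 CPM, Bergmann glia and astrocyte markers (6 of 6) to 1948 to 2214 against 2105 to 2562 CPM, and Golgi and molecular layer interneuron markers (5 of 6) to 648 to 804 against 754 to 969 CPM. Choroid plexus markers (3 of 5, led by Ttr) varied most, from 24.7 to 1273 CPM against 19.6 to 2118 CPM. The thalamus list (7 of 8) summed to 540 to 688 against 525 to 666 CPM, though Slc17a6 and Tcf7l2, which are on it, divided the libraries. In wild-type mice its median was 602 CPM in cerebellum, 517 in brainstem, 199 in cortex and 264 in striatum. The sum is therefore no measure of thalamic tissue in cerebellum. RNA integrity numbers (RIN) were 7.5 to 8.2 against 7.5 to 8.1 and totals 34614864 to 69383426 against 38734249 to 58254081 counts. The division was read from the values, so no test is given for it, and what divides the libraries was not tested.

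**Figure D3:**
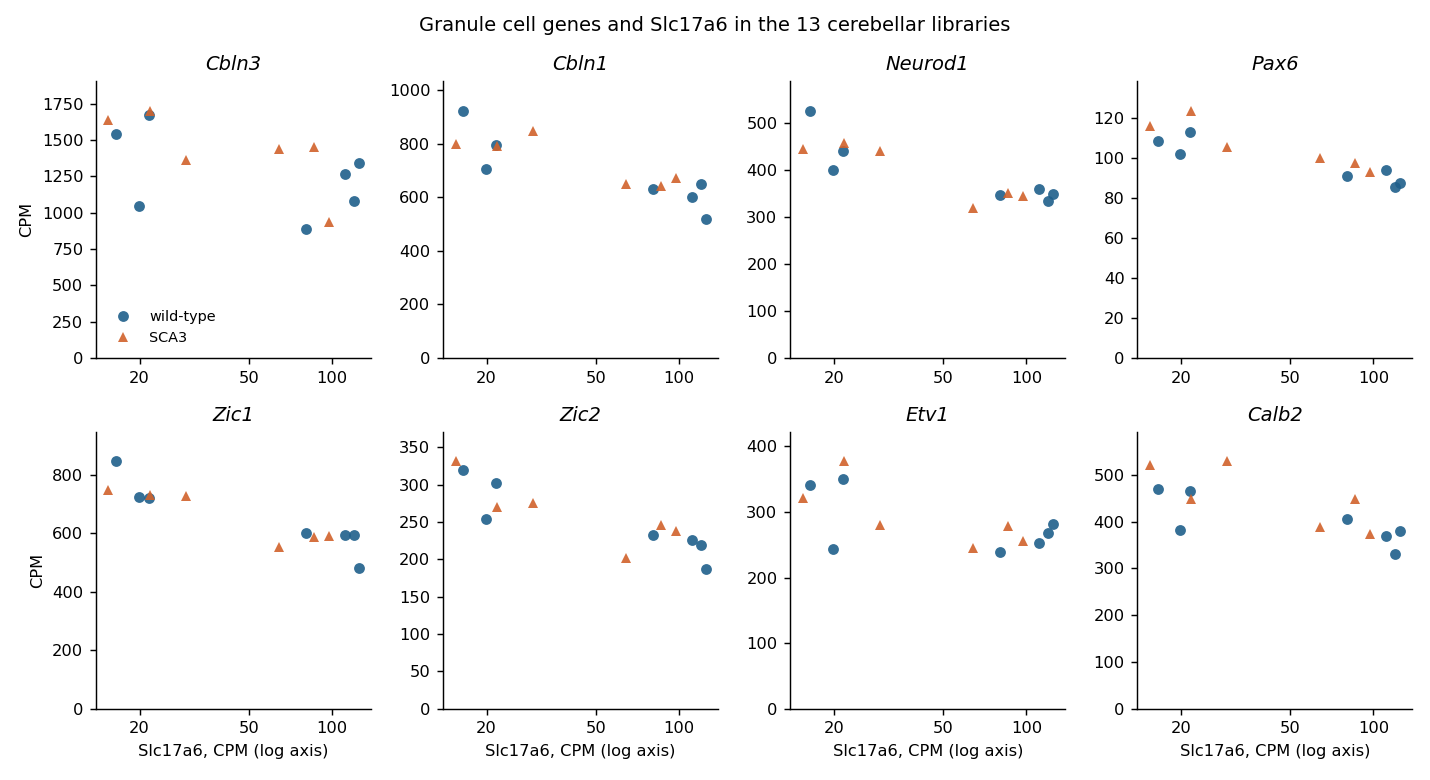
Level of each member (vertical axis, CPM from 0) against that of Slc17a6 (horizontal axis, CPM, log axis) in the 13 cerebellar libraries, with wild-type as circles and SCA3 as triangles. The 6 libraries at 15.4 to 29.4 CPM of Slc17a6 hold the upper values of Cbln1, Neurod1, Pax6, Zic1 and Zic2, and both genotypes are found on both sides.

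Over all 13 cerebellar libraries the 28 pairs of members had a median Pearson correlation of log2 CPM of 0.76, all 28 positive, and 1.85% of all gene pairs reached that median, but these values carry the division above. Within the 7 libraries low in Zic1, a split that itself narrows the range of Zic1, the median was 0.16 (from -0.49 to 0.87), which 38.0% of all gene pairs reached, and within the 6 high ones it was 0.57, which 14.6% of all gene pairs reached. All points share their library total, and no test is given for them. The genes most like each member over all 53 libraries were Ptpn22, Car8 and Homer3 for Cbln3 (r = 0.99, 0.98 and 0.98), Slc41a3, Mtss1 and Trim67 for Cbln1 (0.97, 0.97 and 0.96) and Ndst3, Ablim1 and Boc for Neurod1 (0.97 each). They were Zic2, Zic4 and Zic5 for Zic1 (0.96, 0.96 and 0.95), Zic5, Zic1 and Inpp1 for Zic2 (0.98, 0.96 and 0.93) and Il16, Trim62 and Gprc5c for Pax6 (0.98, 0.97 and 0.97). For Etv1 they were Cdkn1b, Ibtk and Fam107b (0.96, 0.96 and 0.95), and for Calb2 Mab21l1, Usp6nl and Ctbp2 (0.94, 0.93 and 0.93). These values over all 53 libraries carry the step between cerebellum and the other regions, which 8.75% of all genes showed without overlap. Such likeness does not place genes in the same cell, as Car8 is on the Purkinje cell list.

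Within the 13 cerebellar libraries, after genotype means were subtracted, the closest genes were others for every member. They were Irf2bpl, Zic1 and Zfp865 for Cbln1, Dhdh, Galnt13 and Ccser1 for Cbln3, Kcnc1, Dab1 and Clip1 for Neurod1, and Cbln1, Tmem178 and Irf2bpl for Zic1. They were Ski, Chgb and Socs7 for Zic2, Asph, Setd7 and Zfp652 for Pax6, Scn2a1, Uhrf1bp1l and Exph5 for Etv1, and Pard6g, Nova2 and Nfia for Calb2, with r between 0.93 and 0.98 for all of these, which carry the same division of libraries.

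In brainstem 0 of 8 members were called, beside 1.92% of all genes, with log2 fold changes from -0.25 (Zic2) to 0.84 (Cbln3, SE 0.63, FDR 0.593). A pair of libraries stood apart for Cbln3 and Neurod1. Cbln3 read 38.1 CPM in wild-type mouse 9083373 and 68.3 CPM in SCA3 mouse 7267054, and 1.99 to 5.92 CPM and 1.07 to 4.79 CPM in the other wild-type and SCA3 brainstem libraries. Neurod1 read 15.8 and 18.3 CPM in the same libraries and 2.85 to 3.94 and 3.29 to 4.33 CPM in the others. These levels are 3.02% and 5.41% of the mean of wild-type cerebellum for Cbln3, and 4.02% and 4.64% for Neurod1. In the same pair Zic1 was also highest (73.1 and 68.5 CPM, the other brainstem libraries 27.0 to 50.8 CPM), as were Zic2 (35.5 and 26.5 CPM, the others 6.22 to 26.2 CPM), Gabrd (11.4 and 8.62 CPM, the others 1.30 to 6.62 CPM) and Cdh15 (3.73 and 6.04 CPM, the others 1.68 to 2.68 CPM). Gabrd and Cdh15 are granule cell genes outside the list. The remaining members did not set both libraries apart. Cbln1 was at 78.0 CPM in mouse 7267054, the highest of the 14 brainstem libraries, but at 42.6 CPM in mouse 9083373 beside a wild-type median of 42.3 CPM, and the highest brainstem values of Pax6 (15.7 CPM) and Calb2 (235 CPM) were in mice 9083375 and 9083514. The summed Purkinje cell markers were at 1385 and 906 CPM in the pair and at 477 to 1227 CPM in the others, so that only the wild-type library lay above them. The 5 granule cell markers that are not members summed to 316 and 176 CPM in the pair and to 84.0 to 263 CPM in the others. As given above, that sum is not particular to granule cells, being higher in wild-type cortex than in wild-type cerebellum. The part of these marker genes in the Cbln3 and Neurod1 values was not tested.

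The sign of the Cbln3 difference in brainstem turned on those libraries. Without mouse 7267054 Cbln3 was called lower in SCA3 (log2 fold change -1.72, FDR 0.0469), without mouse 9083373 it was called higher (2.12, FDR 0.0221), and without both brainstem libraries it was -0.43 and 0 of 8 members were called. The last was chosen after seeing the data.

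**Figure D4:**
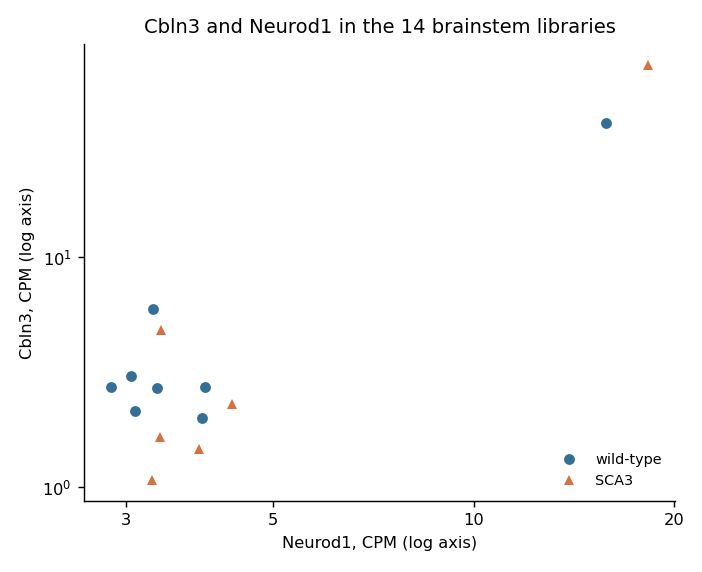
Cbln3 (vertical axis) against Neurod1 (horizontal axis), both in CPM on log axes, in the 14 brainstem libraries, with wild-type as circles and SCA3 as triangles. Of the 14, 12 lie below 6 CPM of Cbln3, and 1 library of each genotype lies at the upper right.

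In cortex 0 of 8 members were called, beside 0.154% of all genes, with log2 fold changes from -0.54 (Cbln1) to 0.52 (Zic1). Zic1 was spread widely within each genotype. It read 9.43 to 46.1 CPM in 6 wild-type libraries and 97.7 CPM in mouse 9083371, and at most 22.4 CPM in 4 SCA3 libraries with 140 CPM in mouse 7267056 and 87.6 CPM in mouse 9083514. Zic2 was highest in the same 3 libraries, at 38.2, 49.2 and 39.0 CPM. Prkcd, a kinase gene strong in thalamic relay neurons, was also highest in them, at 53.4, 72.9 and 54.3 CPM against 10.6 to 25.8 CPM in the other 10 cortical libraries. Other thalamic genes followed in part. Slc17a6 was at 75.9, 88.4 and 18.9 CPM in mice 9083371, 7267056 and 9083514 and highest in wild-type mouse 7267055 (151 CPM). Tcf7l2 was highest in mouse 7267056 (21.2 CPM), at 14.2 and 10.9 CPM in mice 9083371 and 9083514 and at 4.17 to 14.4 CPM in the other 10. Slc17a7, the transporter of cortical excitatory neurons, was lowest in mice 9083371 and 7267056 (358 and 365 CPM), at 695 CPM in mouse 9083514 and at 584 to 1630 CPM in the others. The summed thalamus list was at 248, 305 and 178 CPM in the 3 libraries and at 143 to 321 CPM in the others. The part of these genes in the Zic1 and Zic2 values was not tested.

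Striatum was the region in which members were called between genotypes. Of the 8, 4 were called and all 4 were lower in SCA3 (Zic1, Zic2, Calb2 and Pax6), beside 7.54% of all genes called, 5.47% lower and 2.07% higher. The median log2 fold change of the 8 was -0.59, against -0.0031 over all genes.

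Zic1 read 17.0, 21.3, 90.1, 128, 153, 162, 177 and 210 CPM in the 8 wild-type striatal libraries and 15.01, 17.2, 18.7, 30.0 and 52.5 CPM in the 5 SCA3 libraries. Wild-type mice 9082857 and 9083371 were as low as SCA3 mice, and the other 6 wild-type libraries lay above all SCA3 libraries. Its log2 fold change was -2.17 (SE 0.50, FDR 0.00426). Zic2 fell by 2.13 on the log2 scale (SE 0.43, FDR 0.000942), with wild-type libraries at 3.98, 8.84, 27.2, 33.4, 52.1, 58.4, 65.1 and 80.0 CPM and SCA3 libraries at 6.62, 6.63, 6.99, 8.47 and 18.2 CPM. The same wild-type mice were the low ones.

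Calb2 read 3.36, 5.17, 26.3, 31.9, 38.1, 60.2, 150.5 and 155 CPM in wild-type striatum and 3.24, 4.11, 11.6, 12.5 and 22.0 CPM in SCA3. It fell by 2.46 on the log2 scale (SE 0.56, FDR 0.00503), and again 6 wild-type libraries lay above all SCA3 libraries. Pax6 fell by 0.63 on the log2 scale (SE 0.19, FDR 0.0217), from 6.28 to 15.5 CPM in wild-type (median 10.5) to 5.66 to 8.22 CPM in SCA3 (median 7.17), and 7 of the 8 wild-type libraries lay above all SCA3 libraries. The ranges of both genotypes overlapped for each of the 4 genes. Pax6 was no longer called when mouse 7267054, 7267056 or 7267059 was left out.

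The remaining members were not called in striatum. Etv1 was at 62.4 ± 11.9 CPM in the 8 wild-type libraries (SD) and at 80.3 ± 16.3 CPM in the 5 SCA3 libraries, with a log2 fold change of 0.36 (edgeR FDR 0.165). Cbln1 read 2.50 to 44.9 CPM in wild-type and 3.19 to 24.9 CPM in SCA3. Neurod1 (0.226 to 5.06 CPM) and Cbln3 (0.177 to 2.26 CPM) were low in striatum of both genotypes. Among the alternatives run, Cbln1 was called lower only without SCA3 mouse 9082853 (-1.50, FDR 0.0447). The calls depended on the library set and the tool: 1 member was called with limma-voom, and 0 in libraries with a RIN of at least 7 or in the 7 mice numbered 9083371 to 9083515 alone. The log2 fold changes stayed negative there: for Zic1, Zic2, Calb2 and Pax6 they were -1.75, -1.66, -1.91 and -0.60 at a RIN of at least 7, and -2.29, -2.40, -2.87 and -0.45 in the 7 mice. RIN ranged from 6 to 9 in wild-type and from 5.7 to 8.3 in SCA3 striatum.

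Some thalamic genes moved with the 4 called members. Prkcd read 15.1 and 19.9 CPM in wild-type mice 9083371 and 9082857, 72.4 to 861 CPM in the other 6 wild-type libraries and 16.1 to 23.2 CPM in SCA3, so that the wild-type libraries level with SCA3 were the same as for Zic1, Zic2 and Calb2. Of the 7 thalamus markers in the table (of 8 listed), 3 were called lower in SCA3 striatum, namely Prkcd (-3.47), Rgs16 (-2.22) and Slc17a6 (-2.48). Other thalamic genes divided the libraries differently: Tcf7l2 was at 7.10 CPM in wild-type mouse 7267055, the highest in Zic1 and Zic2, and at 33.2 CPM in SCA3 mouse 9082853, and Slc17a6 was at 8.55 CPM in wild-type mouse 9083375 and 71.3 CPM in SCA3 mouse 9082853. The thalamus list summed to 122 to 2107 CPM in wild-type and 129 to 311 CPM in SCA3. Markers of striatal projection neurons (6 of 6 in the table) had 0 called, but their sum divided the libraries as Prkcd did, in the opposite direction. It was 5002 and 5013 CPM in wild-type mice 9082857 and 9083371, 1048 to 2868 CPM in the other 6 wild-type libraries and 3130 to 4694 CPM in SCA3, with medians of 2392 CPM over all wild-type libraries and 4392 CPM over SCA3. Drd1, the dopamine receptor gene of one class of these neurons, read 342 and 315 CPM in the same wild-type mice, 68.8 to 197 CPM in the other 6 and 219 to 308 CPM in SCA3. With a thalamus marker score as a covariate in the striatal libraries alone, 0 of 8 members were called and the log2 fold changes were -1.79 (Zic1), -1.86 (Zic2), -1.46 (Calb2) and -0.53 (Pax6). With a projection neuron score as the covariate 0 of 8 were called, at -1.03, -1.05, -0.50 and -0.39. Both covariates were chosen after seeing the data. The fit of striatal libraries alone without a covariate called Zic1 only (FDR 0.0329).

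**Figure D5:**
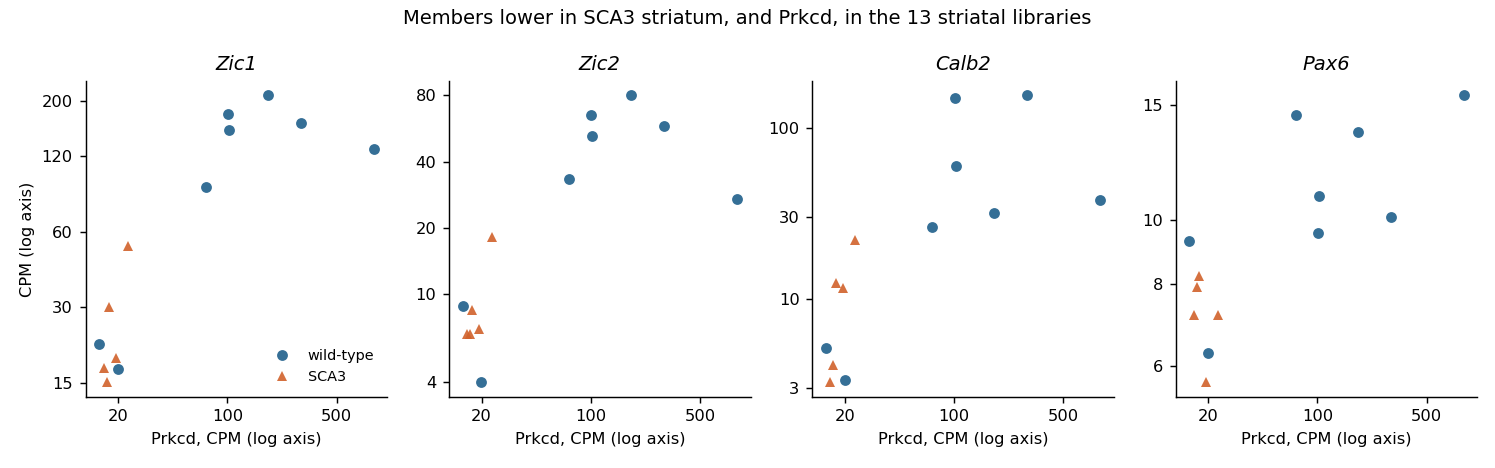
Zic1, Zic2, Calb2 and Pax6 (vertical axes, CPM, log axes) against Prkcd (horizontal axis, CPM, log axis) in the 13 striatal libraries, with wild-type as circles and SCA3 as triangles. The 7 libraries at 15.1 to 23.2 CPM of Prkcd, 2 of them wild-type, hold the 7 lowest values of each member, and the 6 wild-type libraries at 72.4 to 861 CPM hold the highest.

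The combined test of a genotype difference in any region called Zic1 (FDR 0.0429) and Zic2 (FDR 0.00888), 2 of 8 members beside 4.73% of all genes, and Calb2 was at an FDR of 0.0548. Whether the genotype effect differed between regions was tested directly, and 0 of 8 members were called beside 0.218% of all genes. With each of the 14 mice left out in turn, the combined test lost Zic1 in 10 fits and Zic2 in 3, those without SCA3 mouse 7267056 (FDR 0.0766), 9083514 (0.0607) or 9083515 (0.0760), and 4 members were called without wild-type mouse 9082857. DESeq2 also called Calb2 (FDR 0.0398, range over 9 alternatives 0.0398 to 0.517). Fewer members were called by other alternatives: 0 with limma-voom, with or without mouse as a random block, and 0 at a RIN of at least 7. Quasi-likelihood and RIN as a covariate each left 1. In the test of the region difference, Zic2 came nearest with an FDR of 0.0678, followed by Zic1 at 0.142 and Calb2 at 0.243, and 2 members were called without mouse 9082853, 9082857 or 9083371. At an unadjusted p below 0.05 the same edgeR test had Zic1, Zic2, Calb2 and Pax6 (4 of 8), and 1125 of all genes. That these members were called in striatum and not in cerebellum is therefore not shown as a difference between the regions by the fit of all mice.

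Related genes were examined as 5 lists. Of the cerebellins and their partners 9 of 10 were in the table, and 0 of 9 were called between genotypes in any region. In wild-type cerebellum against brainstem 3 were higher and 5 lower (37.6% of all genes were lower), among the latter Cbln2 and Cbln4, with log2 fold changes of -1.98 and -2.47. Cbln1 and Cbln3 thus ran opposite to Cbln2 and Cbln4 across these regions. In SCA3 against wild-type cerebellum Nrxn2 and Nrxn3, which encode presynaptic partners of cerebellins, had log2 fold changes of 0.01 and -0.07.

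Granule cell synapse and channel genes were present for 14 of 15, and 10 were higher in wild-type cerebellum than in brainstem with 1 lower, beside 35% of all genes higher and 37.6% lower. Gabrd, a GABA receptor subunit of tonic inhibition in granule cells, had a log2 fold change of 5.42 and Cdh15, an M-cadherin gene, 4.63. Between genotypes 0 of 14 were called in cerebellum (median -0.0004), with 0.10 for Gabrd, 0.11 for Slc17a7 and -0.02 for Grin2c, and 1 of 14 in striatum, Kcnk9, a potassium leak channel gene, which fell by 0.66 (edgeR FDR 0.0192), a share near the 7.54% of all genes called there.

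Granule lineage transcription factors were present for 14 of 17. Against brainstem, where 35% of all genes were higher and 37.6% lower, 11 were higher in wild-type cerebellum and 1, Meis2, was lower (-2.25), and En2, a homeobox factor of the hindbrain, was higher by 3.83. In cerebellum 0 of 14 were called between genotypes (median 0.09). In striatum 4 of 14 were lower in SCA3, beside 5.47% of all genes, among them Zic4 (-2.46), Zic5 (-1.88) and Mab21l1 (-1.53). In brainstem, where 1.92% of all genes were called, 1 of 14, Etv4, was higher (0.51, edgeR FDR 0.00232). Thus Zic4 and Zic5 were lower in SCA3 striatum along with the members Zic1 and Zic2, and none of these was called in cerebellum. As given above, the striatal calls of Zic1 and Zic2 were lost in some alternatives, and neither had a difference between regions called. No alternatives were run for Zic4 or Zic5.

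All 5 genes listed beside Fat2 (the cadherin genes Fat1, Fat3, Fat4 and Dchs1, and Fjx1, which is not a cadherin gene) were present. Of these, 0 were called between genotypes in any region. Fat1 was higher in wild-type cerebellum than in brainstem by 1.69 and Fat3 and Fat4 lower (-0.90 and -1.52). Of the calcium-related genes listed beside Calb2 (Calb1, Pvalb, Scgn and Pcp4, the last not an EF-hand gene) 3 of 4 were present. All 3 were higher in wild-type cerebellum than in brainstem, beside 35% of all genes: Calb1 by 3.09, Pvalb by 1.91 and Pcp4 by 1.53. None of the 3 was called between genotypes in any region. Of all genes, 1.92% were called in brainstem, 0.0647% in cerebellum, 0.154% in cortex and 7.54% in striatum.

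Marker lists of 13 cell types were read the same way. In cerebellum and cortex none of their genes was called between genotypes. In brainstem, beside 1.92% of all genes called, Gja1 of the astrocyte list (-0.58) and P2ry12 of the microglia list (-0.37) were lower in SCA3. In striatum, where 5.47% of all genes were called lower, they were 1 of 7 Purkinje cell markers (Slc1a6), 2 of 3 unipolar brush cell markers (among them Plcb4), 2 of 6 astrocyte markers (Aldh1l1 and Gja1), 2 of 6 oligodendrocyte markers (among them Mobp), 1 of 3 olfactory bulb markers (Doc2g) and 1 of 5 granule cell markers that are not members (Mab21l1), beside the 3 of 7 thalamus markers given above. None was called of the Golgi and interneuron, microglia, endothelium, choroid plexus, projection neuron or cortical excitatory neuron markers in striatum, and none of these 13 lists had a gene called higher in SCA3 in any region.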

How the data were processed

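Tissue of about 30 mg was sequenced as poly-A selected, non-stranded libraries (paired 125-base reads). Per the labels and the study's methods, the authors aligned reads to GRCm38 with STAR 2.3.0e, counted reads per RefSeq gene without strand with HTSeq 0.6.1, and deposited raw counts for genes above a filter of 4 CPM. The lowest mean level in the table is 4.07 CPM.

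Counts as deposited were fitted in edgeR 4.0.16 (R 4.3.3) with TMM factors and 1 coefficient for each of the 8 region and genotype groups over all 53 libraries. Contrasts were tested by the likelihood ratio test the study used, with Benjamini-Hochberg adjustment over 12372 genes and calls at an FDR below 0.05. SEs come from the negative binomial information. CPM use TMM totals, log2 CPM a prior count of 2, and RPKM the merged exon length of GENCODE vM21. Fold changes were recovered on simulated data. Library totals were 31680939 to 76703758 counts. Counting error is not small for Cbln3 and Neurod1 where they are low, with 10 to 158 and 13 to 178 counts per library in SCA3 striatum. Quasi-likelihood, DESeq2 1.42.0, limma-voom 3.58.1, other filters, RIN, and subsets of mice were tried as alternatives.

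Libraries of 1 mouse share an animal, so the mouse pairs regions. The mean correlation of their deviations from group means was 0.0904 to 0.186 over 6 pairs of regions. Genotypes are compared within a region over separate mice.

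Named genes are all members, listed genes past the threshold and the 3 genes most correlated with each member, with further genes chosen for their values where the text sets them beside a result. The members and lists were chosen with earlier results of these data known. Promoter windows searched are the 250 bases before RefSeq starts, exons included, and only the sequences printed leave annotated exons out. A few genes of the lists are not reported here by name.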

Additional observations from a re-analysis of the deposited data

Results flagged for a closer look

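Single libraries far from the rest of their group were sought with Dixon's test in the 64 groups of 1 member, region and genotype, and 6 stood out, where chance gives about 1 in 20 groups. In brainstem, wild-type mouse 9083373 was far above the next library in Cbln3 (38.1 against 5.92 CPM) and in Neurod1 (15.8 against 3.94 CPM). SCA3 mouse 7267054 was far above in the same genes, with 68.3 against 4.79 CPM of Cbln3 and 18.3 against 4.33 CPM of Neurod1. SCA3 mouse 9082853 was far below the next library in cerebellar Cbln3 (934 against 1363 CPM) and far above it in striatal Zic2 (18.2 against 8.47 CPM).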

How the results depend on the processing

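The 8 members stayed higher in cerebellum in all alternatives and both genotypes, save that the call of Calb2 over brainstem was lost with limma-voom (1.19, wild-type), without mouse 9083372 or 9083375 (1.18 each, wild-type) and in the 7 mice numbered 9083371 to 9083515 taken alone (1.20 wild-type, 1.33 SCA3). With mouse as a fixed block the wild-type difference of Calb2 was 1.29 and still called. Between genotypes 0 of 8 were called in cerebellum and in cortex under every alternative. In brainstem the count was 1 in those 7 mice (Cbln3, lower in SCA3), 1 with a thalamus score (Etv1, higher in SCA3, 0.23), and 0 to 1 leaving out single mice. In striatum 4 became 1 with limma-voom, with or without mouse as a random block, 1 in striatal libraries alone, 0 at a RIN of at least 7, 0 in those 7 mice, 0 with either marker score, and 3 to 5 leaving out single mice, while Zic1, Zic2, Calb2 and Pax6 stayed lower in SCA3 in each of these (Zic2 -1.74 with limma-voom, -2.13 in striatal libraries alone). The combined count of 2 became 1 by quasi-likelihood or with RIN as covariate, 1 in those 7 mice (Cbln3, not Zic1 or Zic2), 0 with limma-voom, blocked or not, 0 at a RIN of at least 7, and 0 to 4 leaving out mice. The region difference went from 0 to 2 at most leaving out mice. The blocked fits changed no other count. The causes were not tested.

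The values with a changed sign were not called, except those of Cbln3 in brainstem in 7 mice and without mouse 7267054. In brainstem, Calb2 became 0.024 with RIN, 0.17 in those 7 mice and 0.040 without the pair of libraries, Cbln3 became -0.17 with limma-voom, blocked or not, -3.17 in those 7 mice (FDR 0.000765, range over 10 alternatives 0.000765 to 0.940) and -0.43 without the pair, Neurod1 -0.90 in those 7 mice and Zic1 0.0068 with RIN. In cerebellum, Neurod1 became 0.013 in those 7 mice and 5.3e-05 alone, Zic1 -0.0071 in those 7 mice, -0.062 with a thalamus and -0.10 with a choroid plexus score, and Zic2 -0.0077 with a thalamus score. In cortex, in those 7 mice, Neurod1 became 0.085, Pax6 -0.015 and Zic1 -0.19. In striatum, Cbln1 became 0.21 at a RIN of at least 7, 0.53 with the thalamus and 0.78 with the projection neuron score, Neurod1 0.11 and 0.50 with those scores, and Cbln3 -0.29 and -0.32 with limma-voom without and with block, -0.057 with RIN, -0.95 at a RIN of at least 7 and -0.91 in those 7 mice.

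Leaving out single mice gave these ranges where a sign changed: in brainstem, Calb2 -0.17 to 0.014, Cbln3 -1.72 to 2.12, Neurod1 -0.43 to 0.85 and Zic1 -0.30 to 0.093. In cerebellum, Etv1 gave -0.032 to 0.11, Neurod1 -0.052 to 0.079, Zic1 -0.048 to 0.086 and Zic2 -0.012 to 0.14. In cortex, Etv1 gave -0.0084 to 0.31, Neurod1 -0.42 to 0.013, Pax6 -0.019 to 0.14 and Zic1 -0.18 to 1.08. In striatum, Cbln1 gave -1.50 to 0.11 and Cbln3 -0.95 to 0.52. The marker scores and the pair of brainstem libraries were chosen after seeing the data.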
